A study of Mus musculus with 14 samples.

Results

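Runx1, Runx2, Runx3 and Cbfb were followed through the differentiation of C2C12 cells, a line of mouse myoblasts that withdraw from division and fuse into myotubes when serum is lowered. These are the 3 mammalian Runx genes and the gene of their common partner, found by gene symbol in the deposited table of 24016 transcripts, in which each of the 4 has 1 row. All 4 passed the filter on low values, a mean of 1 or more, which 14312 transcripts passed.

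Cells were transfected either with a control siRNA (siCtrl) or with a pool of siRNAs against Klf5 (siKlf5), a zinc finger transcription factor. They were collected before and after transfer from growth medium into differentiation medium with horse serum, on days 0, 1, 2 and 3. Poly(A) RNA was sequenced from 1 library for each of the 8 combinations of siRNA and day, all from 1 cell line, so that no condition had a replicate. The study related Klf5 to muscle differentiation, and its ChIP-seq samples were not analysed here.

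Runx proteins bind DNA through the Runt domain and switch genes on or off according to the cofactors they recruit. Core binding factor beta, the product of Cbfb, does not bind DNA itself but strengthens the binding of all Runx proteins and protects them from degradation. Runx1 is known as a master regulator of blood formation and is also induced in skeletal muscle that has lost its nerve. Runx2 is the determinant of bone-forming cells, and Runx3 is known from T cells and sensory neurons.

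The 3 Runx genes carry a common sequence at their distal start sites, shown here because it contains the binding motif of the factors themselves. Among the windows from 250 bases before to 50 bases after the GENCODE transcript starts of the 3 genes on mm9, the longest stretch present in all of them was 18 bases long. Of the same windows at the 23953 transcript starts of the table, searched on both strands, none outside the Runx genes held it. In the following lines the shared stretch is in capitals, each line reading in the direction of the gene.
Runx1, minus strand, chr16:92826270-92826299: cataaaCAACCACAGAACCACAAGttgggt
Runx2, minus strand, chr17:44951532-44951561: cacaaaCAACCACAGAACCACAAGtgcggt
Runx3, plus strand, chr4:134676418-134676447: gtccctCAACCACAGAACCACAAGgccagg
The Runx motif, searched as TGTGGT on both strands, occurred 2 times within the shared stretch in the reverse direction. By comparison, 1.24% of the windows of expressed transcripts held it at least 2 times, and 12.7% held it at least once. The stretch began 26 bases downstream of the counted start of Runx1 and at position -136 relative to that of Runx3. The Runx2 transcript in the table (NM_001271630, chr17:44740938-44873125) starts at an internal promoter, and the stretch lies at position -78430 relative to that start. The Runx2 value therefore does not separate the isoforms of its start sites, since exons that they share count toward the same row. Runx1 and Runx3 also have 1 row each, so their values are not resolved to the start sites shown either.

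The sequences just before the counted starts of Runx3 and Cbfb are given because Klf5 belongs to a family that binds GC boxes (CCGCCC) and CACCC boxes (CACCC), and the siRNA was directed against it. Both motifs are in capitals in whichever direction they occur.
Runx3, plus strand, chr4:134676310-134676559: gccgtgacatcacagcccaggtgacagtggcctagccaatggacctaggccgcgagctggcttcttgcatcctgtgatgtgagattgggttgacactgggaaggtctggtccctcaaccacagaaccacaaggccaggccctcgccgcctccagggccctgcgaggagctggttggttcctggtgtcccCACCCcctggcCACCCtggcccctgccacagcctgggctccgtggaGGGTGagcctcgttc
Cbfb, plus strand, chr8:107694324-107694573: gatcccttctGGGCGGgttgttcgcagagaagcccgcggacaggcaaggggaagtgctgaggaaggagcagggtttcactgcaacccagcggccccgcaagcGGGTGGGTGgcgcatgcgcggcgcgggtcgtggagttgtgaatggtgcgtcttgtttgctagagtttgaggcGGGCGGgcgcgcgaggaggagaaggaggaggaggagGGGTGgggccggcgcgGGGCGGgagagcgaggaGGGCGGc
From 250 bases before to 50 bases after the start, Cbfb held 4 GC boxes and 3 CACCC boxes, of which 2 share a base, whereas Runx3 held 3 CACCC boxes and no GC box. Runx2 held 1 GC box and no CACCC box, and Runx1 held neither motif. Both motifs are common, since 61.1% of the windows of expressed transcripts held a GC box and 61.9% a CACCC box. At least 2 were held by 36.7% for the GC box and 28.4% for the CACCC box. Whether Klf5 was bound at any of these sites was not analysed here.

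The values are FPKM as deposited, that is, reads per kilobase of exon on a scale of 10000000 reads. Levels can thus be set side by side between genes, as far as the exon length of the 1 transcript counted holds. The libraries held between 7850497 and 20301506 reads on transcripts, and the members were covered by 374 to 5922 reads per library. Klf5 itself, the check of the siRNA, stood in siKlf5 at between 0.157 (day 0) and 0.419 (day 1) of its siCtrl level, so some Klf5 mRNA was left on every day. The myoblast and myotube markers were all expressed (9 of 9), with a summed FPKM of 3353 to 16402 in siCtrl and 2827 to 15340 in siKlf5. Of the haematopoietic markers, 3 of 7 had a mean of at least 1 and Ptprc, Cd3e, Csf1r and Spi1 did not, Cd3e being at 0 throughout. Their sum was 49.0 to 76.2 in siCtrl and 35.3 to 81.5 in siKlf5, most of it from Cd14. Of the osteoblast markers, 2 of 5 had a mean of at least 1, with a sum of 10.5 to 34.8 in siCtrl and 13.0 to 32.2 in siKlf5, and Sp7, Ibsp and Alpl were below 1. The highest of these lists were Cd14 (mean FPKM 41.2) and Dmp1 (21.8), and their part in the Runx and Cbfb values was not tested.

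In every library Cbfb had the highest level of the 4 genes and Runx2 the lowest. The mean FPKM over the 8 libraries was 408 for Cbfb, 216 for Runx1, 118 for Runx3 and 64.6 for Runx2, which placed them at the 90.8th, 78.6th, 62.4th and 46.5th percentile of the transcripts tested. Runx1 and Runx3 changed places in FPKM during the course. Runx3 was above Runx1 in both day 0 libraries, and Runx1 was above Runx3 in the other 6. The order on day 0 depends on the exon length of the 1 transcript counted per gene, 5776 bases for Runx1 and 3883 for Runx3. In reads on day 0, Runx1 had 1530 and Runx3 had 1267 in siCtrl, against 1071 and 1109 in siKlf5.

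**Figure D1:**
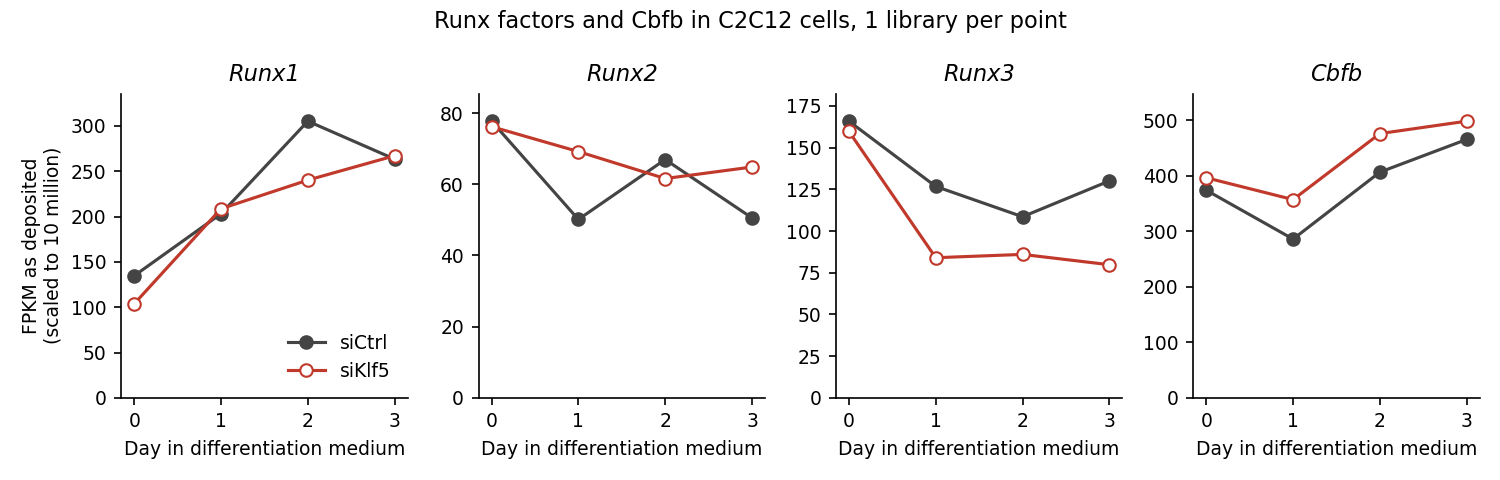
FPKM of each gene (vertical axis, starting at 0) against the day in differentiation medium, for siCtrl (filled) and siKlf5 (open), with 1 library per point. Runx1 climbs from 104 to 135 on day 0 to 263 to 267 on day 3, Runx3 starts at 159.7 to 166 and is lower afterwards, most so in siKlf5, and Cbfb has its lowest values on day 1.

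Differentiation was compared first, as day 1, 2 or 3 against day 0 averaged over the siCtrl and siKlf5 cultures. Runx1 rose on all 3 days, Runx3 fell on all 3 days, and Runx2 and Cbfb did not pass the test. The test was a limma fit of log2(FPKM + 0.1) with day and siRNA as factors, with p-values adjusted by the Benjamini-Hochberg method over all 14312 transcripts. It has only 2 libraries per day, and nothing in the labels says whether they came from separate cultures beyond the siRNA. With 1 library per siRNA and day, its p-values rest on how the siRNA difference varied between days, and on spread shared from other transcripts. They do not measure the spread between replicate cultures. A siRNA effect that truly differed between days would count as spread.

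Runx1 (NM_001111021, chr16:92601711-92826319, minus strand, 5776 bases of exon) had FPKM values of 135, 203, 305 and 263 on days 0, 1, 2 and 3 in siCtrl. In siKlf5 the values were 104, 209, 240.2 and 267. Both day 0 libraries lay below all 6 later ones, but the share of all transcripts in such an order was not counted. Runx1 rose by a log2 change of 0.80 ± 0.14 (SE) on day 1, 1.20 ± 0.14 on day 2 and 1.17 ± 0.14 on day 3, with adjusted p-values from limma of 0.0090, 0.0011 and 0.00084. Among all transcripts, 6.82% were called higher on day 1, 11.5% on day 2 and 12.8% on day 3. The day 3 call held without any 1 of the 8 libraries (adjusted p up to 0.039), and the day 2 call was lost only without siCtrl day 2 (adjusted p = 0.064). The day 1 call was lost without siCtrl day 0, siCtrl day 2, siKlf5 day 0, siKlf5 day 1 or siKlf5 day 2 (adjusted p = 0.071, 0.053, 0.14, 0.087 and 0.053).

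The 2 cultures were also followed separately, with no test. In siCtrl, Runx1 on day 3 was 1.96 times its day 0 level (log2 ratio 0.97, 95% interval 0.75 to 1.19), close to 2-fold and past it with median-ratio (1.08) or upper-quartile scaling (1.06). In siKlf5 it was 2.58 times its day 0 level (1.36, 1.11 to 1.62). The 2-fold mark was passed upward by 15.5% of transcripts in siCtrl and by 14.9% in siKlf5. These intervals are exact binomial ones for reads counted in units of 6 and cover counting error only. The steps from day to day differed in size between the cultures. In siCtrl the steps from day 0 to 1 and from day 1 to 2 were alike (log2 0.59 and 0.59) and were followed by -0.21 from day 2 to 3. In siKlf5 the step from day 0 to 1 was 1.01, followed by 0.20 and 0.15, whose intervals included 0.

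Runx3 (NM_019732, chr4:134676560-134733905, plus strand, 3883 bases of exon) went the other way. Its FPKM values were 166, 127, 109 and 130.0 on days 0, 1, 2 and 3 in siCtrl, and 159.7, 84.0, 86.0 and 79.8 in siKlf5. The 2 day 0 libraries were above all others, and the 3 later siKlf5 libraries were the lowest of the 8. Here too the share of all transcripts in such an order was not counted. Runx3 fell by 0.66 ± 0.18 (SE) on the log2 scale on day 1, by 0.75 ± 0.18 on day 2 and by 0.68 ± 0.18 on day 3, with adjusted p-values from limma of 0.044, 0.021 and 0.025. Of all transcripts, 9.93% were called lower on day 1, 11.6% on day 2 and 17.6% on day 3. These calls were close to the threshold. The day 1 call was lost without any 1 of the 8 libraries (adjusted p = 0.086 to 0.30), the day 2 call without either library of day 0, 2 or 3 (0.053 to 0.20), and the day 3 call without siCtrl day 2, siCtrl day 3, siKlf5 day 0, siKlf5 day 2 or siKlf5 day 3 (0.079 to 0.21). All 3 were lost when siRNA was left out of the fit (adjusted p = 0.15, 0.088 and 0.10).

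Within the cultures, Runx3 on day 3 was 0.784 of its day 0 level in siCtrl (log2 -0.35, 95% interval -0.65 to -0.05) and 0.4996 of it in siKlf5 (-1.0, -1.38 to -0.63). The latter lies on the 2-fold mark and falls short of it under other pseudocounts and scalings. The mark was passed downward by 12.7% of transcripts in siCtrl and 12.4% in siKlf5.

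Runx2 (chr17, minus strand, 5821 bases of exon) was the least abundant and the least variable of the Runx genes. It had FPKM values of 77.7, 50.1, 66.9 and 50.5 on days 0, 1, 2 and 3 in siCtrl, and of 76.2, 69.2, 61.6 and 64.8 in siKlf5. The day 0 libraries were the highest in both cultures, but the later values did not follow a common order. Against day 0 the log2 changes were -0.39, -0.26 and -0.43 for days 1, 2 and 3, with adjusted p-values from limma of 0.27, 0.43 and 0.17 and an interval of the last from -0.92 to 0.07. A change of the size seen for Runx3 was thus within its interval.

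Cbfb (NM_022309, chr8:107694574-107741888, plus strand, 2874 bases of exon) had FPKM values of 374, 286, 407 and 466 in siCtrl and 397, 357, 476 and 498 in siKlf5. In both cultures day 1 was the lowest and day 3 the highest. Against day 0 the log2 changes were -0.27, 0.19 and 0.32 (95% interval of the last 0.08 to 0.57) for days 1, 2 and 3, with adjusted p-values from limma of 0.13, 0.24 and 0.053. The day 3 change passed the threshold without siCtrl day 1 (adjusted p = 0.047) or siKlf5 day 1 (0.046) and when libraries were rescaled to a common median ratio or upper quartile (0.020 for both).

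A marker of differentiation moved with the day as well. Myog, the myogenic factor that marks entry into differentiation, rose by a log2 change of 2.10 on day 1 to 2.17 on day 3 (adjusted p from limma 9.2e-05 and 3.1e-05), whereas Myod1, a partner of Runx1 in muscle, had log2 changes of 0.08 to 0.28 that were not called (adjusted p = 0.73 on day 1 and 0.15 on day 3). The part of the mixture of myoblasts and myotubes in the Runx and Cbfb values was not tested, and in such bulk samples fewer cells of a type and less RNA per cell cannot be told apart.

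Because the Runx proteins compete for the same site and partner, the levels were also expressed as shares of the summed Runx FPKM. In siCtrl, Runx1 made up 35.6%, 53.5%, 63.5% and 59.3% of the sum on days 0, 1, 2 and 3, and Runx3 made up 43.9%, 33.4%, 22.6% and 29.3%. In siKlf5 the share of Runx1 was 30.5%, 57.7%, 61.9% and 64.9% and that of Runx3 was 47.0%, 23.2%, 22.2% and 19.4%. By FPKM, Runx3 thus had the largest share on day 0 and Runx1 on days 1 to 3 in both cultures. The order on day 0 depends on the exon lengths counted. The share of Runx2 lay between 11.4% and 20.5% in siCtrl and between 15.7% and 22.4% in siKlf5, and was higher in siKlf5 on 4 of 4 days (mean difference 3.53 percentage points, SD 1.97; two-sided exact permutation test p = 0.125, the smallest that 4 pairs allow). The FPKM of Runx2 itself was lower in siKlf5 on 2 days and higher on 2.

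**Figure D2:**
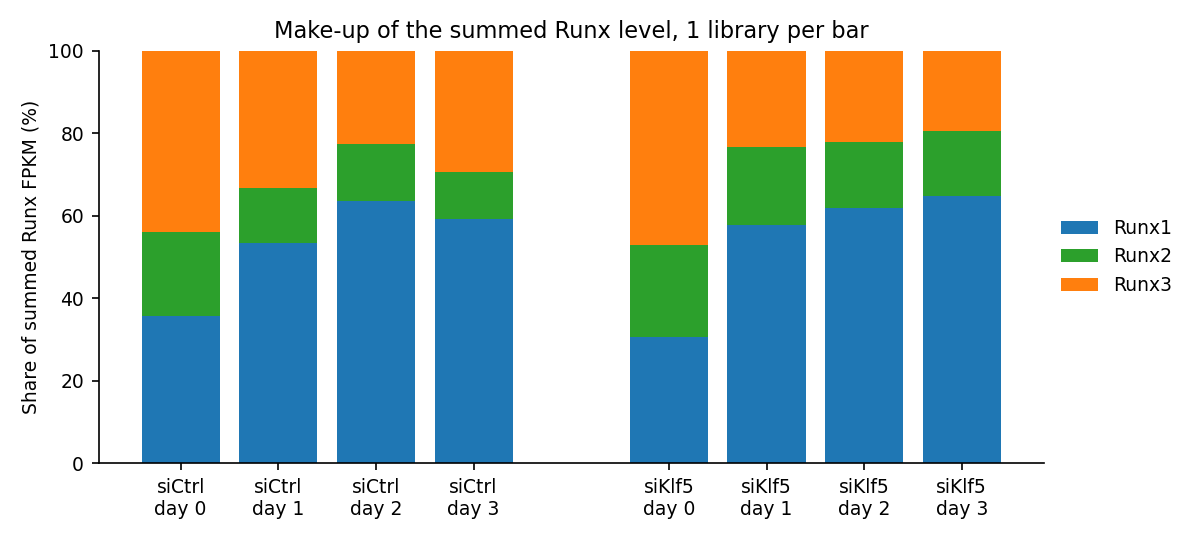
Share of Runx1, Runx2 and Runx3 in the summed Runx FPKM (vertical axis, percent), with 1 bar per library, siCtrl on the left and siKlf5 on the right. The Runx1 share grows from 30.5% to 35.6% on day 0 to 59.3% to 64.9% on day 3, while Runx3 shrinks from 43.9% to 47.0% to 19.4% to 29.3%.

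The summed Runx level stayed in a narrow range, from 340 to 481 FPKM over the 8 libraries. Set against Cbfb, the sum was 1.01, 1.33, 1.18 and 0.953 times the Cbfb level on days 0, 1, 2 and 3 in siCtrl, and 0.856, 1.01, 0.814 and 0.826 times in siKlf5. The ratio was lower in siKlf5 on 4 of 4 days, by 0.241 on average (SD 0.118; two-sided exact permutation test p = 0.125, the smallest possible). These are mRNA levels, and protein was not measured.

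The effect of the Klf5 siRNA was then compared, as siKlf5 against siCtrl averaged over the 4 days. None of the 4 genes was called by limma, and only 0.0629% of all transcripts were (9 of 14312), of which Klf5 was 1 (log2 change -1.94 ± 0.20 SE, adjusted p = 0.024). At an unadjusted p under 0.05 there were 1374 transcripts, Runx3 and Cbfb among them. Runx3 had the largest estimate of the 4, a log2 change of -0.42 ± 0.13 (SE; 95% interval -0.72 to -0.13; adjusted p = 0.37). The estimate was 0.18 ± 0.08 for Cbfb (0.01 to 0.36; adjusted p = 0.49). It was -0.17 ± 0.10 for Runx1 (-0.40 to 0.07; adjusted p = 0.64) and 0.17 ± 0.15 for Runx2 (-0.18 to 0.52; adjusted p = 0.75). For Runx1 and Runx2 a change beyond 1.5-fold, 0.58 on the log2 scale, thus lay outside the interval in either direction.

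On single days, with no test, Runx3 was lower in siKlf5 in all 4 pairs and Cbfb higher in all 4. For Runx3 the log2 ratio of siKlf5 over siCtrl on day 0 was -0.05 (95% counting interval -0.35 to 0.24). It was -0.59 (-1.05 to -0.15), -0.34 (-0.68 to -0.0021) and -0.70 (-1.08 to -0.33) for days 1, 2 and 3. The day 2 ratio was -0.29 with median-ratio scaling, for which no interval was computed. On days 1 and 3 the ratio was past 1.5-fold, with siKlf5 at 0.663 and 0.614 of siCtrl. Before differentiation the 2 cultures were near each other and afterwards they were apart, but whether the siRNA effect differed between days cannot be tested with 1 library each. Of all transcripts, 11% on day 1 and 12.5% on day 3 were lower by more than 1.5-fold, against 11.1% on day 0 and 13% on day 2. The exact permutation test over the 4 days gave p = 0.125 for Runx3, the smallest it can give (two-sided, sign flips).

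For Cbfb the log2 ratios were 0.08, 0.32, 0.23 and 0.10 on days 0, 1, 2 and 3, and the counting intervals of days 1 and 2 lay above 0 (0.03 to 0.61 and 0.05 to 0.40). With median-ratio scaling the day 1 ratio was 0.26, and no interval was computed on that scale. None of the ratios reached 1.5-fold, which 9.22%, 16.4%, 7.69% and 10.7% of all transcripts passed upward on the same days. The exact permutation test over days again gave p = 0.125. Runx1 was lower in siKlf5 on day 0 (log2 -0.38, 95% counting interval -0.66 to -0.10) and day 2 (-0.35, -0.51 to -0.18), and its ratio was 0.04 and 0.02 on days 1 and 3, with intervals that included 0. Runx2 had ratios of -0.03, 0.46, -0.12 and 0.36, all with counting intervals that included 0. The exact permutation test gave p = 0.5 for both genes.

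**Figure D3:**
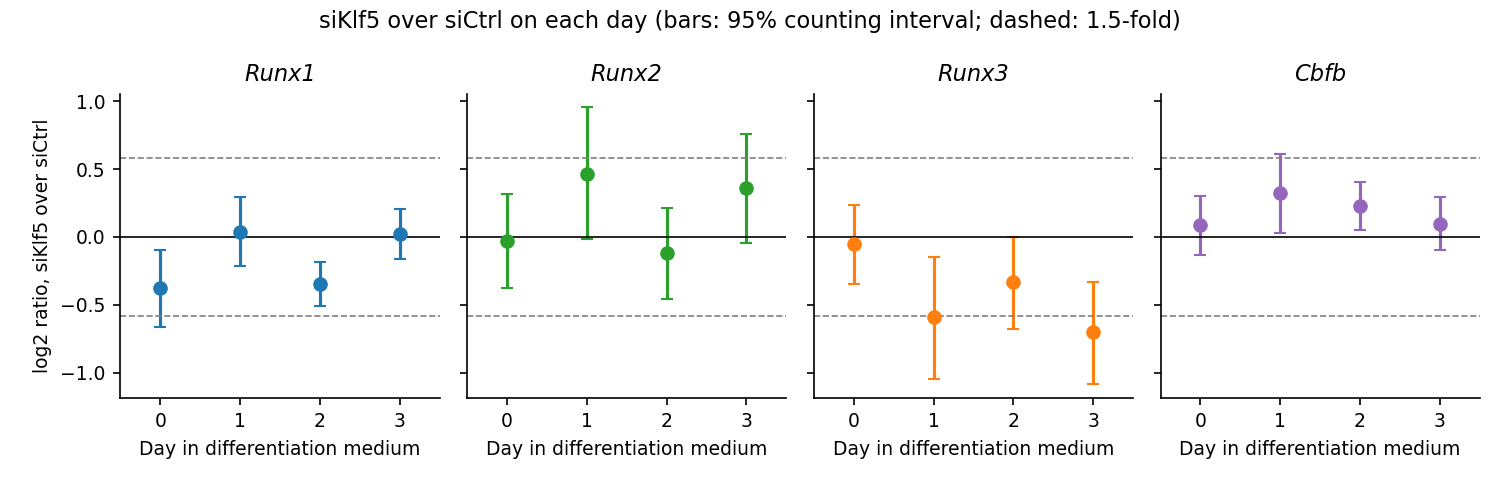
Log2 ratio of siKlf5 over siCtrl (vertical axis) on each day for the 4 genes, with 95% counting intervals as bars and the 1.5-fold marks dashed. Runx3 lies below 0 on all days and past the mark on days 1 and 3 (-0.59 and -0.70), Cbfb lies above 0 on all days, and Runx2 lies on either side of 0, as does Runx1 by at most 0.04 above it.

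The genes around the Runx factors were taken as 5 lists. Their counts on day 3 against day 0 are read against 12.8% of all transcripts called higher and 17.6% called lower, with a median log2 change of -0.09 over all of them. No member of any list was called for the siRNA, for which only 0.0629% of all transcripts were called.

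The denervation list holds muscle genes tied to the loss of the nerve, which is known to induce many of them, like Runx1, but to lower Hdac9, and not to induce the adult receptor subunit gene Chrne. Of its 19 expressed genes 17 rose by day 3 and none fell, with a median log2 change of 2.17. Myog and Myh3 of the list are also among the myoblast and myotube markers used here. The list was chosen with earlier results of these data known, so the count is a description. Any link of the rise to Runx1 or to loss of the nerve was not tested. The 17 include Hdac9, with a log2 change of 2.19 (adjusted p from limma 0.0052). They also include Chrne, with 5.35 (0.022), which on day 0 was at FPKM 0.967 in siCtrl and 0 in siKlf5. Named after their values were seen, the subunits of the acetylcholine receptor Chrna1 and Chrng rose by a log2 change of 1.18 and 3.93, and the receptor's organising kinase Musk by 1.47. In siKlf5 against siCtrl the list had a median log2 change of 0.02. Myog was at the low end, with a log2 change of -0.46 (adjusted p from limma 0.23) and lower on 4 of 4 days. The kinase Sik1 had -0.27 (0.52), and the class II histone deacetylases Hdac4 and Hdac9 were at the high end with 0.33 (0.52) and 0.28 (0.79).

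Of the cell cycle genes tied to Runx factors, 3 of 13 rose and 6 fell by day 3, with a median log2 change of -0.46. Cdkn1a, the inhibitor p21 and a known Runx target, rose from FPKM 1079 to 2806 in siCtrl and from 724 to 2372 in siKlf5 (log2 change 1.55, adjusted p from limma 0.00051). Ccnb1, a mitotic cyclin, fell by 1.81 on the log2 scale (adjusted p = 6.9e-05), and Myc fell by 0.99 (adjusted p = 0.0026). The inhibitor gene Cdkn1b had a log2 change of -0.01 (adjusted p = 0.98). In siKlf5 against siCtrl, Myc was lower on 4 of 4 days (log2 change -0.38, adjusted p = 0.35) and Ccnb1 higher on 4 of 4 days (0.29, adjusted p = 0.40), with Cdkn1a at -0.34 (0.45) and Cdkn1b at 0.24 (0.49).

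The partners that bind Runx proteins were mixed, with 7 of 34 expressed genes higher on day 3 and 4 lower, and a median of -0.03. Cbfa2t3, a corepressor of the ETO family, rose from FPKM 2.88 to 59.3 in siCtrl and from 3.91 to 28.7 in siKlf5 (log2 change 3.58, adjusted p from limma 0.00096). The groucho corepressor Tle2 rose by 1.16 (0.0089) and Hdac4 by 0.74 (0.028). Smad5, which carries BMP signals to Runx2, had 0.08 (0.71). Of the members of AP-1, which acts with Runx proteins at many enhancers, Fos rose by 2.02 and Fosl1 fell by 2.35 on the log2 scale, both named after their values were seen. For the siRNA the estimates were -0.47 for Cbfa2t3 (adjusted p = 0.68), -0.22 for Smad5 (0.53), 0.19 for Tle2 (0.76) and 0.33 for Hdac4 (0.52).

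The last 2 lists hold skeletal genes downstream of Runx2 and blood genes downstream of Runx1 and Runx3. Of 26 skeletal genes 17 were expressed, and 2 rose and 1 fell by day 3, with a median of 0.15. Dmp1, a bone matrix protein, rose by 1.28 (adjusted p from limma 0.029), whereas the growth factor Vegfa and the cartilage factor Sox9 had -0.42 (0.10) and 0.14 (0.54). Bmp4 was at FPKM 4.09 on day 0 and 18.7 on day 3 in siCtrl, and was listed at 0 on day 0 and at 31.2 on day 3 in siKlf5. It was also listed at 0 on day 1 in siCtrl. Its day 3 log2 change of 5.23 ± 2.16 (SE) was not called (adjusted p from limma 0.11). For the siRNA, Vegfa had -0.24, Sox9 -0.23, Dmp1 0.34 and Bmp4 0.51 (adjusted p = 0.57, 0.57, 0.69 and 0.95). Of 26 blood genes only 7 were expressed, of which 1 rose and 2 fell by day 3. Their median of 1.17 is the value of Itgal, whose mean FPKM was 1.25 (adjusted p from limma 0.59). The 1 that rose was Itga4 (log2 change 1.48, adjusted p = 0.018). Both that fell encode blood transcription factors, Zbtb7b (log2 change -0.70, adjusted p = 0.0085) and Gata2 (-0.97, 0.023), and Cebpa had 1.40 (0.053). For the siRNA their estimates were -0.05, 0.22 and 0.24, with adjusted p-values of 0.90, 0.72 and 0.84.

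**Figure D4:**
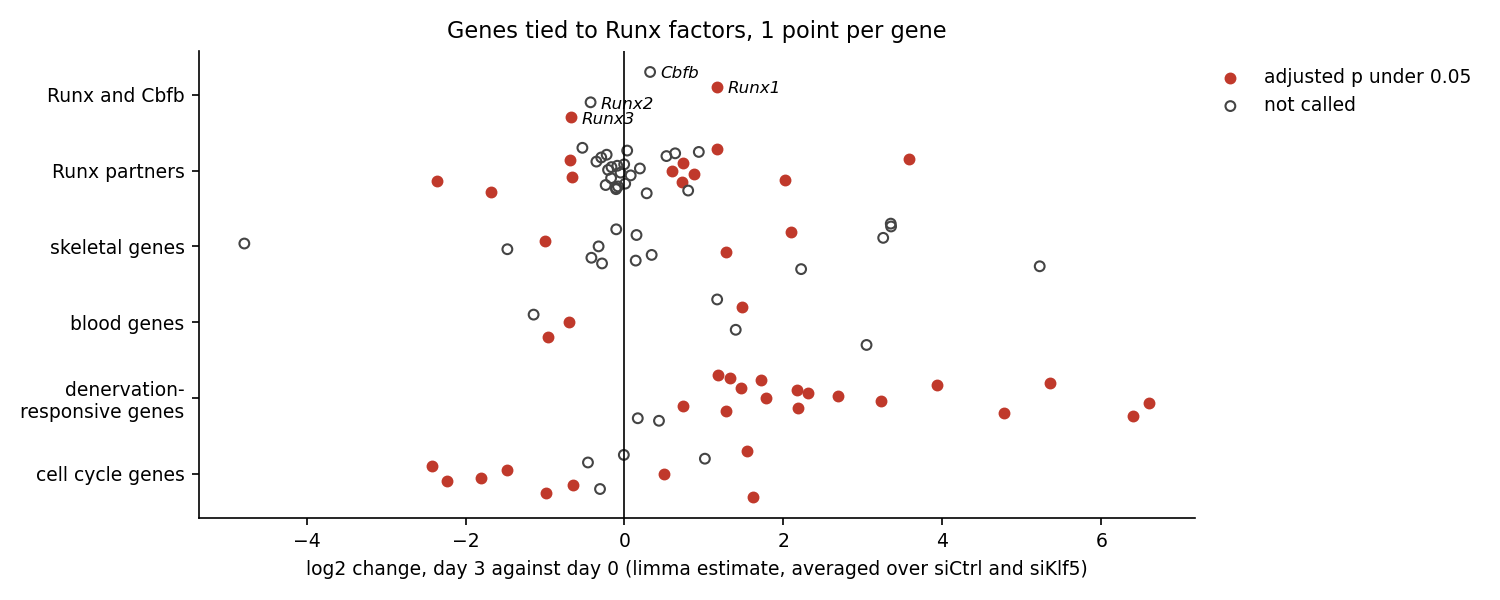
Log2 change on day 3 against day 0 (horizontal axis, limma estimate averaged over siCtrl and siKlf5) for the 4 genes and for the expressed genes of the 5 lists, with genes at an adjusted p under 0.05 filled. In the denervation list 17 of 19 genes are filled and to the right, Hdac9 and Chrne among them. The cell cycle genes have 6 filled to the left and 3 to the right.

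The transcripts whose course over the 8 libraries was most like that of each gene were found by Pearson's r of log2(FPKM + 0.1) among the 11590 transcripts whose mean was 10 or more. These correlations share libraries and the course of days, and are given as a description. Closest to Runx1 were Dysf (r = 0.996), the membrane repair protein dysferlin, then Dapk2 (0.994), Cand2 (0.994), Lphn3 (0.992) and Ip6k3 (0.991). Dysf went from FPKM 18.9 on day 0 to 179 on day 3 in siCtrl. Closest to Runx3 were Plekho1 (0.963), Hyi (0.962), Mapk7 (0.962), Pkp4 (0.959) and Naa25 (0.955).

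Closest to Runx2 were Hist1h2bm (0.981), a replication-dependent histone gene that went from FPKM 30.7 on day 0 to a listed value of 0 on day 3 in siCtrl, Creg1 (0.960), Zfp13 (0.960), the repair gene Brca1 (0.958) and the mitotic kinesin gene Kif4 (0.951). Closest to Cbfb were Ppcdc (0.987), Dand5 (0.969), Bmper (0.962), Apoe (0.959) and Emc7 (0.954). Among themselves the members form pairs not picked for a high correlation, so their values cannot be set against those above. The correlation of Runx1 was -0.69 with Runx3, -0.56 with Runx2 and 0.35 with Cbfb, and that of Runx3 was 0.16 with Runx2 and -0.37 with Cbfb.

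Reads of both strands were counted, and the GENCODE annotation places exons of genes on the opposite strand over Runx1 (Gm16801, 106 bases) and Runx2 (Gm10497, 519 bases), whose reads cannot be told apart from theirs there. No exon of another gene overlapped those of Runx3 or Cbfb. Of the stretches of 50 bases in their annotated transcripts, none of 7857 for Runx1 and none of 3004 for Cbfb occurred in another gene's transcripts, against 6 of 8799 for Runx2 and 55 of 4125 for Runx3.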

How the data were processed

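The authors used STAR to align paired-end reads to mm9 and HOMER to count them on RefSeq exons, on both strands, with at most 3 reads per position and 1 transcript per gene. Versions for these RNA-seq steps are not given in the sources used here. The deposited FPKM values have a matrix total of 10000000, which makes them larger than usual FPKM. The deposited log2 columns hold the FPKM plus 1 plus a number below 1, and 7 served as an alternative. 1 log2 column with no day in its name was not used. The study's methods name DESeq2 for read counts, which were not used here.

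Reads were recovered from values, lengths and the step of each library (100% within 0.1 of whole numbers). Since 6 reads were more frequent than 5 by 2.83 to 10.0 times, exact Clopper-Pearson 95% intervals used reads divided by 6. Transcripts whose mean was 1 or more were fitted with limma 3.58.1 in R 4.3.3 on log2(FPKM + 0.1). Day and siRNA were factors, with Benjamini-Hochberg adjustment (called under 0.05). The scale understates ratios between low values above 0, but a listed 0 gives large ratios. For Bmp4 the log2 ratio of siKlf5 over siCtrl was -5.39 on day 0 and 5.94 on day 1. Only the siRNA comparison of the fit was tried on simulated data, with planted changes larger than the estimates for the 4 genes. Single-day ratios have no test. Named genes were the 4 members, Klf5, Myog and Myod1, the 2 lowest and 2 highest of each list (mean at least 10) by siKlf5 over siCtrl, and the 5 most similar transcripts per member. The members and lists were chosen with earlier results of these data known, and 1 haematopoietic marker is not reported here. Sequences and GENCODE annotation are of the mm9 genome build. Other steps used scipy 1.17.1, pandas 2.3.3 and numpy 2.4.6 under Python 3.11.15, and figures matplotlib 3.10.9.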

Additional observations from a re-analysis of the deposited data

Results flagged for a closer look

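The ratio of siKlf5 over siCtrl had opposite signs on different days for 2 of the 4 genes. For Runx1 the log2 ratio was -0.38 on day 0 and 0.039 on day 1, and for Runx2 it was -0.12 on day 2 and 0.46 on day 1. With 1 library per siRNA and day the difference between days was not tested, and the counting intervals included 0 on all 4 days for Runx2 and on day 1 for Runx1 (-0.22 to 0.29). With median-ratio scaling the day 1 value of Runx1 was -0.026. Outlying samples could not be looked for within groups of 1 library.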

How the results depend on the processing

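Of 228 alternative fits of the 16 tests on the 4 genes, 186 kept the direction and the call and 36 lost a call. Another 6 gained a call and 0 changed direction. The 186 include tests of Runx2, Cbfb and the siRNA that were not called in the main fit and stayed so. That count is therefore no measure of how well the calls held. The 72 recomputed single-day and day 3 over day 0 ratios stayed within their counting intervals, which were computed only on the values as deposited. All calls lost were of Runx1 and Runx3, and those gained were of Cbfb on day 3, with log2 changes of 0.32 (mean of at least 5), 0.32 (log2 columns), 0.44 (median-ratio scaling) and 0.43 (upper-quartile scaling). Without a filter on low values, Runx1 on day 1 (0.80) and Runx3 on days 1, 2 and 3 (-0.66, -0.75 and -0.68) were not called. Without siRNA as the block that pairs the libraries, the same 3 values of Runx3 (-0.66, -0.75 and -0.68) were not called, and no other call on these genes changed. Runx3 on day 1 was also not called with log2 columns (-0.54), median-ratio (-0.54) or upper-quartile scaling (-0.52), nor on day 3 with median-ratio scaling (-0.56). Leaving out each library in turn, chosen after seeing the data, gave 0.66 to 0.94 and 1.06 to 1.34 for Runx1 on days 1 and 2, -0.90 to -0.41, -0.997 to -0.507 and -0.92 to -0.43 for Runx3 on days 1, 2 and 3, and 0.26 to 0.39 for Cbfb on day 3.

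The 2397, 3307 and 4347 transcripts called on days 1, 2 and 3 became 653, 1206 and 2161 without the filter, and 342 to 1129, 511 to 3112 and 1512 to 4234 in the fits without 1 library. The day 1 calls were 976 higher and 1421 lower, against 1190 and 972 with median-ratio and 1294 and 895 with upper-quartile scaling, which moved the median of all transcripts from -0.09 to 0.03. The day 3 calls were 1831 and 2516, against 2173 and 1827 or 2151 and 1878. The 9 called for the siRNA became 23 with log2 columns, 3 with day as a linear term, 1 without day as the block and 0 with no filter. They were also 0 by limma in each of the 4 fits without 1 day, with 980 to 1147 at an unadjusted p under 0.05, and 1435 with no filter. Counts past 1.5-fold on days 0 to 3 were 1595, 1569, 1856 and 1796 lower, against 2644, 2531, 2977 and 2849 with no filter and 1001, 1040, 1138 and 1128 at a mean of at least 5. Those higher on days 0, 2 and 3 were 1319, 1101 and 1532, against 2374, 2276 and 2573, or 743, 551 and 933. Past 2-fold lower, 1821 in siCtrl and 1781 in siKlf5 became 2807 and 2766 with no filter. Depth limits the values of Runx2, with as few as 374 reads, and Runx3, with as few as 435.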
